A study of Mus musculus with 8 samples.

Results

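The amino acid and peptide transporters are the solute carrier (SLC) genes of families 1, 3, 6, 7, 15, 36, 38 and 43. They were chosen by symbol from a table of read counts per gene, and 64 of its 23420 features belong to these families. The libraries are RNA-seq of dendritic cells from wild-type (WT) mice or mice with a Gata1 knock-out (KO), either unstimulated, which the labels call steady state, or stimulated with lipopolysaccharide (LPS), a component of the outer membrane of bacteria. Each of the 4 groups had 2 libraries, called biological replicates. How Gata1 was deleted and in which cells, the strain and age of the mice, how the dendritic cells were obtained, the LPS dose and the time of exposure were not stated in the labels at hand. Of the 64 transporter genes 33 passed a filter on low counts and were tested. Of the other 31, 11 had no read in any library, 15 reached at most 10 reads in their highest library, and 5 reached more. These 5 were Slc6a19 (26 reads), Slc6a11 (21), Slc6a3 (17), Slc7a3 (11) and Slc43a1 (11), and the filter passed 3 of 7 genes of family 1, 1 of 2 of family 3, 7 of 17 of family 6, 8 of 15 of family 7, 3 of 5 of family 15, 3 of 4 of family 36, 6 of 11 of family 38 and 2 of 3 of family 43.

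Cells take up amino acids through carriers that differ in substrate and in location. Cationic carriers bring in arginine, heterodimers of a heavy chain and a light chain exchange large neutral or cationic amino acids or cystine, sodium-coupled carriers concentrate small neutral amino acids, and proton-coupled carriers of the lysosome return amino acids and peptides to the cytosol. In dendritic cells and macrophages these proteins feed nitric oxide synthesis with arginine and glutathione synthesis with cystine. The lysosomal peptide carriers also deliver bacterial muramyl peptides to cytosolic sensors.

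Total counts ran from 8005151 to 15495249 per library, and summed CPM of the 64 genes (a gene's reads scaled to a fixed library size with TMM factors) from 3318 to 3847 at steady state and 5522 to 8036 with LPS. The median SD of log2 CPM over the tested transporters was 0.17 in unstimulated KO, 0.19 in unstimulated WT, 0.32 in LPS-treated KO and 0.52 in LPS-treated WT. No label states that replicate libraries came from separate mice or cultures, so the p-values measure the spread between these libraries, and no pair of replicates agreed within sampling noise. The dendritic cell label was checked against 17 markers, and each had reads. Their summed level was 25134 and 24051 CPM in the KO steady-state libraries and 33706 and 19849 in WT. With LPS it was 7510.4 and 12646 in KO and 21112 and 14454 in WT. Siglech, a plasmacytoid marker, stayed under 1 CPM in every library. Reads were found for 15 of 16 macrophage markers, without Vsig4, and their sum ran from 3021 to 11879.8 CPM per library. B cell markers (9 of 9 with reads) summed to at most 36.6 CPM, T and NK cell markers (8 of 8) to at most 8.83, and stromal and endothelial markers (10 of 10) to at most 149. Mast cell and basophil markers (10 of 12, without Mcpt4 and Cma1) ran from 17.3 to 272 CPM, and erythroid and megakaryocyte markers (9 of 12, without Hba-a1, Hba-a2 and Hbb-b1) from 79.5 to 391. The 14 neutrophil markers in the table all had reads and summed to 552 to 916 CPM at steady state and 1206 to 3171 with LPS, most of the latter being Lcn2 (1022 to 2757 CPM). Prss34, Mcpt8, Cpa3 and S100a9 were highest in WT steady-state replicate 2 (55.9, 10.3, 16.7 and 87.8 CPM) and at most 9.36 elsewhere. Gata1 itself had 0 reads in the 4 KO libraries and 1, 10, 0 and 1 in WT steady-state replicates 1 and 2 and WT LPS replicates 1 and 2.

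Upstream sequences are given for a few of the transporter genes. Slc6a12 and Slc6a13, GABA and betaine carriers, lie head to tail 4.852 kb apart on chromosome 6 and both rose with LPS. Slc36a1, a lysosomal carrier, fell, and Slc7a11, the cystine carrier, is a known target of the amino acid response. The main test below called Slc7a11 in no comparison. The stretches end at a RefSeq transcript start (GRCm38.p6, the assembly of mm10) or where a GENCODE exon begins, and gene positions come from the same RefSeq annotation. Capitals mark matches to TGATGNAA (core of the amino acid response element), CACGTG (the E-box of the lysosomal CLEAR element), or TGGAAA (the start of the tonicity element), searched on both strands.
Slc6a12, chr6:121342324-121342573, forward strand: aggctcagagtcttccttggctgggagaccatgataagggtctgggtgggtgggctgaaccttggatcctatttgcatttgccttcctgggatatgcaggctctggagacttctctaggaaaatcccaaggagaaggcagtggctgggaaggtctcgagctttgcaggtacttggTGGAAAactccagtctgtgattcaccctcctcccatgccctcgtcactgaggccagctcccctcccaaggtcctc
Slc6a13, chr6:121300038-121300226, forward strand: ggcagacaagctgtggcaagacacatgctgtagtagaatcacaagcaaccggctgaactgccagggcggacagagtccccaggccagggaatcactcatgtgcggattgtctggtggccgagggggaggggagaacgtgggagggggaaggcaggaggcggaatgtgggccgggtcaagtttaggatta
Slc36a1, chr11:55204090-55204339, forward strand: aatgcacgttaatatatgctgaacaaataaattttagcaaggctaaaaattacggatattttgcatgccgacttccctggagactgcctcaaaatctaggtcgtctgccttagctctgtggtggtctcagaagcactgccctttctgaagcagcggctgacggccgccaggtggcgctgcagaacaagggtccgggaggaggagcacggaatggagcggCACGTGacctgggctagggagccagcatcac
Slc7a11, chr3:50443615-50443863, reverse strand: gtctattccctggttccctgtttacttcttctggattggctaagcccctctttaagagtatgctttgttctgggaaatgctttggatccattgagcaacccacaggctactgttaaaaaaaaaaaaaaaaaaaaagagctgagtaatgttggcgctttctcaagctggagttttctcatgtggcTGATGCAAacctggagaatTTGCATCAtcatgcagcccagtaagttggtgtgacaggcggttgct
TGGAAA was found once upstream of Slc6a12, CACGTG once upstream of Slc36a1, and TGATGNAA at 2 places upstream of Slc7a11, at a start inside the span of the RefSeq gene. The windows at the other RefSeq starts of Slc6a12 held no TGGAAA. The Slc6a13 stretch held none of the 3, and of the windows at the other 2 RefSeq starts of that gene, 1 (chr6:121303389-121303638) held TGGAAA. The core of the interferon-stimulated response element was searched too and was found in none of the 4 stretches. Among 32851 RefSeq windows of 250 bases before a start, TGATGNAA was present in 3.45%, CACGTG in 6.02%, TGGAAA in 18.6% and the interferon-stimulated element in 2.98%. RefSeq windows were not at hand for Slc7a2, Slc6a15, Slc36a2 and Slc43a3. They were at hand for 22 of the 33 tested genes, 37 windows in all. In them the interferon-stimulated element was not found, TGATGNAA was found in 3 windows (8.11%, 2 genes), CACGTG in 2 (5.41%, 2 genes) and TGGAAA in 7 (18.9%, 6 genes). These are letter matches, and binding was not measured.

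Per length of exon, the most abundant of these genes at steady state were Slc15a3, Slc6a6 and Slc3a2, in that order in both genotypes. Slc15a3, which carries histidine and small peptides out of endolysosomes, was at 163 mean CPM per kilobase in KO and 188 in WT. The taurine carrier Slc6a6 was at 142 and 133, and Slc3a2, the heavy chain that the exchangers of family 7 need at the cell surface, at 78.2 and 77.4. The libraries of Slc15a3 and Slc6a6 overlapped per length in KO and not in WT, and those of Slc3a2 lay below both. With LPS Slc3a2 reached 416 mean CPM per kilobase in KO and 255 in WT, and Slc15a3 329 and 389.9. In KO the LPS libraries of Slc3a2 lay on either side of those of Slc15a3, so the order of the pair was not resolved. The arginine carrier Slc7a2 moved up from 2.87 to 162 in WT and from 13.9 to 131 in KO, and Slc38a2 moved down from 60.6 to 17.4 and from 56.5 to 12.3.

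**Figure D1:**
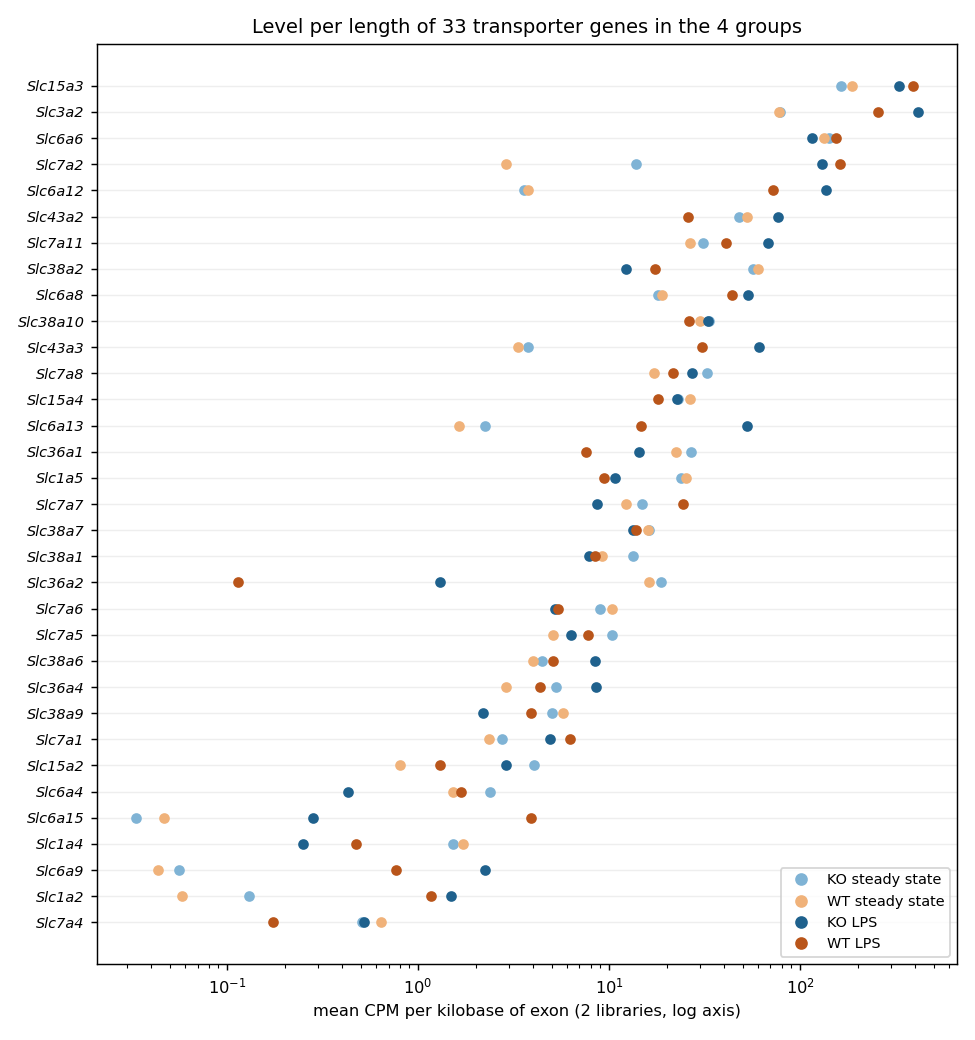
Mean CPM per kilobase of exon (log axis) of the 33 tested transporter genes, 1 point per group of 2 libraries, sorted by the mean over the 8 libraries. Slc15a3, Slc3a2 and Slc6a6 lie furthest to the right, and for Slc6a15, Slc7a2, Slc6a12 and Slc36a2 the pale points (steady state) lie far from the dark ones (LPS).

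LPS against steady state asked how stimulation changes the set. In WT cells 10 of 33 genes passed (edgeR's quasi-likelihood test, Benjamini-Hochberg adjusted p under 0.05), 7 higher and 3 lower. This was 30.3%, where 6.49% of all 12442 tested genes passed (3% higher and 3.49% lower). In KO cells 11 passed, 8 higher and 3 lower, or 33.3% against 11.8% of all genes (5.3% higher and 6.46% lower). Slc1a2, Slc6a12, Slc6a13, Slc6a15, Slc7a2 and Slc43a3 rose in both genotypes, and Slc36a1, Slc36a2 and Slc38a2 fell in both. Slc7a1 passed in WT (KO adjusted p = 0.117), and Slc6a9 and Slc38a6 in KO (WT adjusted p = 0.0537 and 0.336). For none of these 3 did the responses of the genotypes differ by the interaction test (adjusted p = 0.967, 1 and 0.885). That test called 0% of all genes, so its result does not show that these 3 respond alike in both genotypes. The median log2 change was 0.35 in WT and 0.00 in KO, beside 0.00 and -0.02 over all tested genes, and the median size without sign was 1.05 and 1.01, beside 0.56 and 0.65. LPS and steady-state libraries did not overlap in 24 of the 33 genes in WT and 27 in KO, where 56.6% and 72.6% of all genes did not. At an unadjusted p under 0.05 there were 18 of 33 in WT and 21 in KO, beside 26.7% and 32.8% of all genes. DESeq2 called 16 in WT and 14 in KO, where it called 16% and 22.9% of all genes. It added Slc3a2, Slc6a9, Slc7a6, Slc7a7, Slc15a3 and Slc43a2 in WT, and Slc3a2, Slc7a11 and Slc15a3 in KO. Marker sums differed between the same libraries. Summed macrophage markers were lower with LPS and did not overlap, at 6189 and 3021 CPM against 10459.6 and 6904 in WT and 7363 and 8220.2 against 11879.8 and 11501 in KO. Apoe, the largest of them at steady state, was at 5772 and 3316 CPM in unstimulated WT and 44.4 and 48.8 with LPS. In KO Apoe was at 6593 and 6299 CPM unstimulated and 947 and 371 with LPS. Emr1, Cd14 and Marco went the other way in both genotypes, so the sum does not stand for each marker. In KO the dendritic cell sum and the mast cell and basophil sum were also lower with LPS, the latter at 17.3 and 37.6 CPM against 93.7 and 105. Most of that latter sum at KO steady state was Gata2 (50.8 and 76.0 CPM) and Kit (40.3 and 27.6). Of the dendritic cell markers, Sirpa went the other way in KO, at 1744.5 and 1373 CPM with LPS against 1150.8 and 1122. The neutrophil sum was higher through Lcn2. Without Lcn2 it was 549 and 881 CPM in unstimulated WT, 259 and 184 in LPS-treated WT, 557 and 589 in unstimulated KO and 636 and 414 in LPS-treated KO. Most of that remainder was Mmp8, at 489 and 579 CPM in unstimulated WT and 217 and 145 in LPS-treated WT. In KO Mmp8 was at 528 and 559 CPM unstimulated and 551 and 348 with LPS. The part of these cell markers in the transporter changes was not tested. In bulk libraries fewer cells of a type and less RNA per cell cannot be told apart.

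Leaving out a library left its group with 1 and the test with fewer residual degrees of freedom. The share of all genes called then moved with the count of transporters. The WT count of 10 fell to 1 without WT steady-state replicate 1 (0.543% of all genes called), to 3 without WT steady-state replicate 2 (0.931%), and rose to 17 without WT LPS replicate 2 (28.3%). The KO count of 11 fell to 3 without either KO steady-state library (1.11% to 1.12% of all genes), to 4 without KO LPS replicate 2 (1.93%) and to 7 when either unstimulated WT library was left out (4.74% to 4.96%). It rose to 17 without either WT LPS library (26% each). No called gene changed direction.

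**Figure D2:**
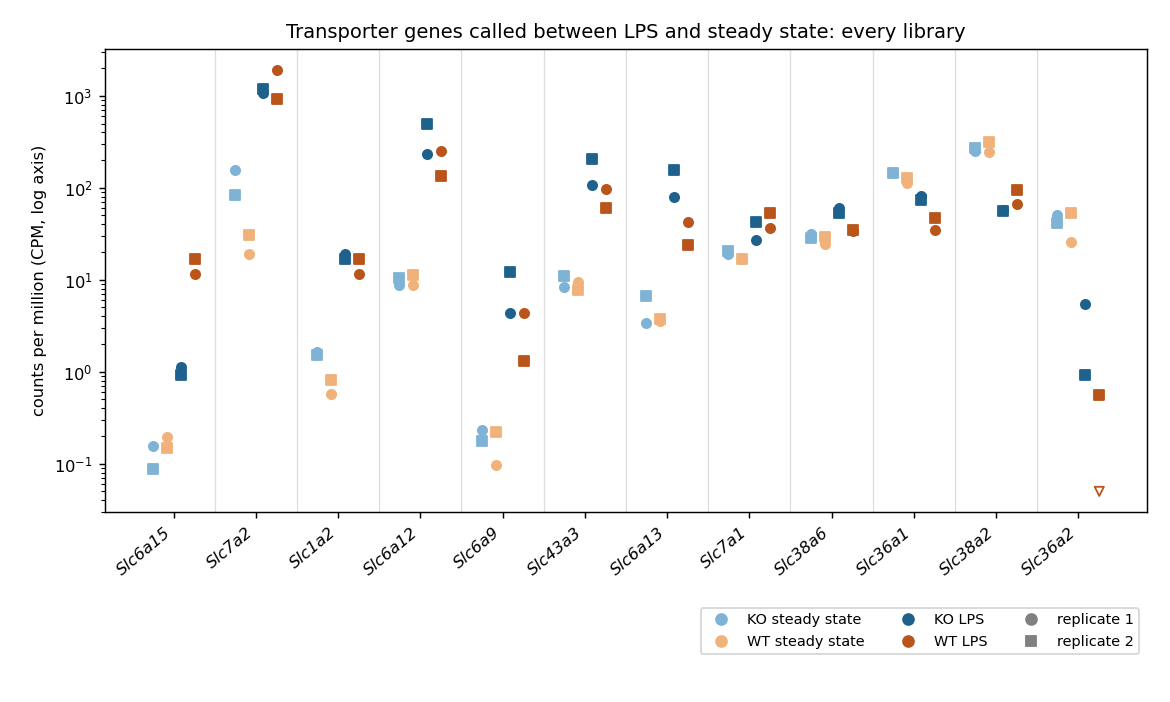
CPM (log axis) in each of the 8 libraries for the 12 transporter genes called between LPS and steady state in at least 1 genotype, with circles for replicate 1 and squares for replicate 2. The open triangle stands for 0 reads of Slc36a2 in WT LPS replicate 1; dark LPS points lie above the pale steady-state points for the 9 genes on the left and below them for the 3 on the right.

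Cationic amino acid carriers supply arginine. Slc7a2 (chromosome 8, 40862341 to 40922070), the carrier through which activated macrophages take up arginine, was at 19.2 and 30.5 CPM in unstimulated WT, 1900.4 and 915 in LPS-treated WT, 158 and 83.1 in unstimulated KO and 1085 and 1186 in LPS-treated KO. All 4 LPS libraries lay far above all 4 steady-state libraries, and at steady state both KO libraries lay above both WT libraries. With LPS the gene was 56.5-fold higher in WT (log2 5.82 ± 0.58, adjusted p = 0.00464) and 9.43-fold higher in KO (log2 3.24 ± 0.52, adjusted p = 0.013). Its share of the summed CPM of the 64 genes went from 0.579% and 0.852% to 29.5% and 16.6% in WT, and from 4.10% and 2.30% to 18.9% and 14.8% in KO. The Slc7a2 call in WT was lost without replicate 1 of WT steady state (adjusted p = 0.0582), and that in KO without either KO steady-state library or replicate 2 of KO LPS (adjusted p = 0.0622 to 0.101). Slc7a1 (chromosome 5, 148327410 to 148399904), the arginine and lysine carrier of most cell types, was at 17.0 and 16.8 CPM in unstimulated WT, 36.2 and 53.1 in LPS-treated WT, 19.1 and 20.6 in unstimulated KO and 27.3 and 42.8 in LPS-treated KO. It rose in WT (log2 1.4 ± 0.31, adjusted p = 0.0431), and its call was lost without either KO steady-state library or either WT steady-state library (adjusted p = 0.0996 to 0.241), with upper-quartile factors (adjusted p = 0.0534) and with edgeR on the 4 WT libraries alone (0.115). Slc7a4, a related gene of unsettled substrate, was at 0.459 to 3.16 CPM over the 8 libraries and did not pass, and Slc7a3 had at most 11 reads in a library.

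In a list of genes that use arginine, cystine, tryptophan, glutamine or other amino acids, 20 of 23 were tested. Hdc and Hal in this list act on histidine. In WT 2 rose with LPS (Nos2 and Hdc) and 2 fell (Kmo and Hal), and in KO 3 rose (Nos2, Gclm and Gss) and 1 fell (Kmo). These 4 of 20 in each genotype stand beside 6.49% of all genes in WT and 11.8% in KO. At an unadjusted p under 0.05 there were 9 and 11 (26.7% and 32.8% of all genes). DESeq2 called 6 in WT and 10 in KO (16% and 22.9%). The median log2 change of the list was 0.58 in WT and 0.25 in KO. Nos2, which makes nitric oxide from arginine, was at 0.386 and 0.297 CPM in unstimulated WT, 1539 and 401 in LPS-treated WT, 0.775 and 0.354 in unstimulated KO and 252 and 987 in LPS-treated KO. It rose in WT (log2 11.44 ± 1.24, adjusted p = 0.00516) and in KO (log2 10.05 ± 1.17, adjusted p = 0.0052), with the call lost in WT without either WT steady-state library (adjusted p = 0.0637 to 0.0739) and in KO without replicate 2 of KO steady state (adjusted p = 0.0531). Gclm, which acts in glutathione synthesis, was at 52.4 and 66.7 CPM in unstimulated WT, 88.3 and 100.2 in LPS-treated WT, 44.7 and 72.9 in unstimulated KO and 226 and 535 in LPS-treated KO. Its rise in KO (log2 2.69 ± 0.46, adjusted p = 0.0154) lost its call without either KO steady-state library or replicate 2 of KO LPS (adjusted p = 0.0585 to 0.117). Kmo, an enzyme of tryptophan breakdown, was at 22.4 and 17.8 CPM in unstimulated WT, 3.83 and 1.36 in LPS-treated WT, 24.6 and 50.4 in unstimulated KO and 0.790 and 0.612 in LPS-treated KO. All LPS libraries lay below all steady-state libraries, and the gene fell in WT (log2 -3.01 ± 0.57, adjusted p = 0.0266) and in KO (log2 -5.70 ± 0.67, adjusted p = 0.00554). The WT call was lost without either WT steady-state library (adjusted p = 0.105 to 0.155) and with edgeR on the 4 WT libraries alone (adjusted p = 0.0759), and the KO call was kept under every alternative. Hdc, which makes histamine, is also among the mast cell and basophil markers.

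Hal, a histidine-degrading enzyme, was the 1 of the 20 users called between genotypes with LPS, where DESeq2 called 5 and 7 had an unadjusted p under 0.05. Over all genes these shares were 0.772%, 8.54% and 16.9%. Hal was at 3.28 and 2.97 CPM in unstimulated WT, 0.132 and 0.0618 in LPS-treated WT, 41.0 and 34.9 in unstimulated KO and 24.9 and 18.4 in LPS-treated KO, with 1 read in each WT LPS library. KO libraries lay above WT libraries at both treatments. With LPS the difference was log2 7.80 ± 0.48, adjusted p = 0.00548, a ratio of summed reads of 263 (95% exact interval 72.2 to 2179.9), with its call kept without any 1 library, and lost with edgeR on these 4 libraries alone (adjusted p = 0.179). The fall of Hal with LPS in WT (log2 -5.01 ± 0.49, adjusted p = 0.00454) kept its call without any 1 library and lost it with edgeR on the 4 WT libraries alone (adjusted p = 0.0585). Intervals of read ratios, here and for other genes, cover counting error only.

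The neurotransmitter and osmolyte carriers of family 6, the largest family here, held more called genes than any of the other 7 families. Of its 17 genes 7 were tested, and 3 rose in WT and 4 in KO, where 6.49% and 11.8% of all tested genes were called. In family 36 the called genes were 2 of 3 tested in each genotype, so the higher count of family 6 is not a higher share. Slc6a12 (chromosome 6, 121342574 to 121365773), which carries betaine and GABA, was at 8.69 and 11.4 CPM in unstimulated WT, 252 and 135 in LPS-treated WT, 8.83 and 10.4 in unstimulated KO and 234 and 499.8 in LPS-treated KO. The LPS libraries lay more than 100 CPM above all steady-state libraries, a 19.2-fold rise in WT (log2 4.27 ± 0.50, adjusted p = 0.00634) and a 38.2-fold rise in KO (log2 5.26 ± 0.52, adjusted p = 0.00326). Its neighbour Slc6a13 (chromosome 6, 121300288 to 121337721), a GABA and taurine carrier, was at 3.57 and 3.72 CPM in unstimulated WT, 42.2 and 23.6 in LPS-treated WT, 3.41 and 6.64 in unstimulated KO and 80.4 and 155 in LPS-treated KO. It rose 8.97-fold in WT (log2 3.16 ± 0.50, adjusted p = 0.0156) and 23.5-fold in KO (log2 4.55 ± 0.52, adjusted p = 0.00507). For both genes the KO call remained without any 1 of the 8 libraries. The WT calls were lost without either WT steady-state library (adjusted p = 0.0621 to 0.0842) for Slc6a12 and without either WT steady-state library (adjusted p = 0.117 to 0.145) for Slc6a13. In the LPS libraries both genes were highest in KO replicate 2 and lowest in WT replicate 2.

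Slc6a15 (chromosome 10, 103367808 to 103419379), a carrier of branched-chain amino acids and proline known mostly from neurons, had 2 and 2 reads in unstimulated WT and 2 and 1 in unstimulated KO. With LPS it had 88 and 269 reads in WT and 10 and 6 in KO, which is 11.6 and 16.6 CPM in WT and 1.13 and 0.918 in KO. Both WT LPS libraries thus lay well above both KO LPS libraries. With so few reads at steady state, Slc6a15 passed the low-count filter only through LPS libraries, as did Slc6a9 below. The rise was log2 6.30 ± 0.56, adjusted p = 0.00372 in WT and log2 2.95 ± 0.61, adjusted p = 0.0263 in KO. From summed reads the ratio was 89.5 (95% exact interval 34.7 to 330.4) in WT and 8.39 (2.40 to 44.9) in KO. The WT rise kept its call without any 1 library, and the KO rise lost it without either KO steady-state library, either WT steady-state library or either KO LPS library (adjusted p = 0.058 to 0.185) and with edgeR on the 4 KO libraries alone (adjusted p = 0.0591). Slc6a9 (chromosome 4, 117835258 to 117869305), a glycine carrier, had 1 and 3 reads in unstimulated WT, 3 and 2 in unstimulated KO, 33 and 21 in LPS-treated WT and 39 and 79 in LPS-treated KO. Its LPS libraries thus stood at 4.40 and 12.1 CPM for KO and 4.36 and 1.30 for WT. It passed in KO (log2 5.24 ± 0.93, adjusted p = 0.0171), with a ratio of summed reads of 37.1 (15.5 to 116), and in WT the change was log2 3.97 ± 0.95, adjusted p = 0.0537. The KO call was lost without either KO steady-state library or replicate 2 of KO LPS (adjusted p = 0.0896 to 0.134), and in WT the gene was called without replicate 2 of WT LPS (adjusted p = 0.0131) and without a filter (adjusted p = 0.0119).

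The other tested genes of family 6 did not pass. The taurine carrier Slc6a6, the third highest of the 33 per kilobase of exon over the 8 libraries, was at 751 and 893 CPM in unstimulated WT, 528 and 1388 in LPS-treated WT, 976 and 787 in unstimulated KO and 776 and 653 in LPS-treated KO, and WT LPS replicate 2 alone exceeded every steady-state library. The changes of Slc6a6 were log2 0.22 ± 0.46, adjusted p = 0.782 in WT and log2 -0.30 ± 0.46, adjusted p = 0.665 in KO. The creatine carrier Slc6a8 was at 76.0 and 74.1 CPM in unstimulated WT, 282 and 68.3 in LPS-treated WT, 82.4 and 61.3 in unstimulated KO and 125 and 299.6 in LPS-treated KO. Its WT LPS replicate 2 lay within the steady-state range and the other 3 LPS libraries above it (log2 1.22 ± 0.66, adjusted p = 0.276 in WT and log2 1.56 ± 0.66, adjusted p = 0.151 in KO). The serotonin carrier Slc6a4 was at most 8.10 CPM. The dopamine carrier Slc6a3, under the filter, had 2 to 17 reads in the 4 steady-state libraries and 0 in all 4 with LPS.

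Glutamate and neutral amino acid carriers of family 1 were low except for Slc1a5. Slc1a2 (chromosome 2, 102658239 to 102790784), the main glutamate carrier of astrocytes, was at 0.579 and 0.817 CPM in unstimulated WT, 11.5 and 16.9 in LPS-treated WT, 1.63 and 1.5 in unstimulated KO and 19.3 and 16.7 in LPS-treated KO. All LPS libraries exceeded 11 CPM while all steady-state libraries lay under 2. It rose in WT (log2 4.31 ± 0.41, adjusted p = 0.00454) and in KO (log2 3.51 ± 0.39, adjusted p = 0.00443), and lost its call in WT without replicate 1 of WT steady state (adjusted p = 0.053) and in KO without either KO steady-state library (adjusted p = 0.0536 to 0.0544). Slc1a5, a glutamine exchanger, was at 106 and 34.6 CPM in unstimulated WT, 21.1 and 30.7 in LPS-treated WT, 87.0 and 44.2 in unstimulated KO and 29.9 and 29.2 in LPS-treated KO. Its LPS libraries lay below its steady-state libraries in both genotypes, and the differences did not pass (log2 -1.43 ± 0.55, adjusted p = 0.153 in WT and log2 -1.15 ± 0.55, adjusted p = 0.187 in KO). Slc1a4, an alanine and serine exchanger, was lower with LPS in both genotypes without passing (log2 -1.77 ± 0.97 and -2.55 ± 1.06).

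The heavy chain Slc3a2 was abundant and varied between LPS libraries, and its light chains lay below it per kilobase of exon in every group. Slc3a2 (chromosome 19, 8706882 to 8723369) was at 233 and 235 CPM in unstimulated WT, 1125 and 418 in LPS-treated WT, 217 and 255 in unstimulated KO and 625 and 1892 in LPS-treated KO. All LPS libraries exceeded all steady-state libraries, and within each genotype the LPS libraries differed more than the steady-state ones. The change was log2 2.41 ± 0.63, adjusted p = 0.0508 in KO and log2 1.72 ± 0.62, adjusted p = 0.135 in WT. In KO it passed without replicate 1 of KO LPS or either WT LPS library (adjusted p = 0.0152 to 0.0368), and with upper-quartile factors, no filter or the 4 KO libraries alone (adjusted p = 0.00823 to 0.0486), and in WT without replicate 2 of WT LPS (adjusted p = 0.0271). Slc7a11 (chromosome 3, 50364936 to 50499087), the light chain that exchanges cystine for glutamate, was at 157 and 363 CPM in unstimulated WT, 362 and 439.7 in LPS-treated WT, 302 and 309.9 in unstimulated KO and 626 and 713 in LPS-treated KO, with no overlap between treatments in KO (log2 1.13 ± 0.40, adjusted p = 0.107) and overlap in WT (log2 0.63 ± 0.40, adjusted p = 0.349). Slc7a5, a light chain for leucine and other large neutral amino acids, was at 15.1 and 20.6 CPM in unstimulated WT, 34.2 and 20.5 in LPS-treated WT, 38.5 and 34.5 in unstimulated KO and 14.3 and 30 in LPS-treated KO. Its relative Slc7a8 was at 81.7 and 58.5 CPM in unstimulated WT, 43.6 and 133 in LPS-treated WT, 117 and 149 in unstimulated KO and 132 and 88.7 in LPS-treated KO, and treatments overlapped in both genotypes (log2 0.34 ± 0.50, adjusted p = 0.691 in WT and log2 -0.27 ± 0.50, adjusted p = 0.733 in KO). Slc7a6, which exchanges arginine for glutamine, was lower with LPS in every library (16.0 to 24.7 CPM, against 31.6 to 39.5) without passing (log2 -0.93 ± 0.27, adjusted p = 0.087 in WT and log2 -0.78 ± 0.27, adjusted p = 0.102 in KO).

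Genes of the amino acid response, which cells switch on through the factor ATF4 when amino acids run short or the endoplasmic reticulum is stressed, were counted as a related list. Of 19 tested genes 3 rose and 0 fell in WT, and 4 rose and 2 fell in KO, beside 6.49% and 11.8% of all genes called. At an unadjusted p under 0.05 there were 8 in WT and 14 in KO (26.7% and 32.8% of all genes), and DESeq2 called 7 and 13 (16% and 22.9%). The median log2 change was 1.30 in WT and 1.61 in KO. Asns and Trib3 rose in both genotypes, Nupr1 in WT, and Ddit3 and Cebpb in KO, while Shmt2 and Aldh18a1 fell in KO. Trib3, a pseudokinase, was at 2.22 and 1.19 CPM in unstimulated WT, 29.6 and 16.1 in LPS-treated WT, 1.86 and 1.33 in unstimulated KO and 34.5 and 65.6 in LPS-treated KO (log2 3.75 ± 0.53, adjusted p = 0.011 in WT and log2 4.96 ± 0.56, adjusted p = 0.00485 in KO). Its call was lost in WT without either WT steady-state library (adjusted p = 0.082 to 0.0968) and in KO without replicate 2 of KO steady state (adjusted p = 0.051). Asns, which makes asparagine, was at 6.76 and 4.24 CPM in unstimulated WT, 50.5 and 24 in LPS-treated WT, 6.66 and 7.96 in unstimulated KO and 24.8 and 63.6 in LPS-treated KO (log2 2.76 ± 0.57, adjusted p = 0.0343 in WT and log2 2.59 ± 0.56, adjusted p = 0.0303 in KO). Its call was lost in WT without either KO steady-state library, either WT steady-state library or replicate 1 of WT LPS (adjusted p = 0.0664 to 0.216) or on the 4 WT libraries alone (adjusted p = 0.068), and in KO without either KO steady-state library, either WT steady-state library or replicate 2 of KO LPS (adjusted p = 0.0598 to 0.178). Aldh18a1, an enzyme of proline synthesis, was at 19.5 and 17.4 CPM in unstimulated WT, 18 and 14.6 in LPS-treated WT, 18.4 and 21.3 in unstimulated KO and 7.22 and 5.05 in LPS-treated KO, and its fall in KO (log2 -1.69 ± 0.31, adjusted p = 0.0189) lost its call without either KO steady-state library, replicate 1 of WT steady state or replicate 2 of KO LPS (adjusted p = 0.0511 to 0.143). Ddit3, a stress-induced factor, was at 26.7 and 17.0 CPM in unstimulated WT, 295 and 65.2 in LPS-treated WT, 23.7 and 15.7 in unstimulated KO and 139 and 471 in LPS-treated KO, and its rise in KO (log2 3.95 ± 0.86, adjusted p = 0.0309) lost its call without either KO steady-state library, either WT steady-state library or replicate 2 of KO LPS (adjusted p = 0.0663 to 0.187). In these 4 LPS libraries Slc3a2, Slc6a8, Ddit3, Cebpb and Asns had their 2 highest levels in KO replicate 2 and WT replicate 1. The part of this library difference in the results was not tested.

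The lysosomal and other proton-coupled carriers of family 36 held 2 of the 3 genes that fell. Slc36a1 (chromosome 11, 55204322 to 55236330), which exports small neutral amino acids from lysosomes, was at 113 and 129 CPM in unstimulated WT, 35.2 and 46.4 in LPS-treated WT, 144 and 145 in unstimulated KO and 82.0 and 73.6 in LPS-treated KO. The gene fell with LPS in both genotypes, with no overlap (log2 -1.57 ± 0.24, adjusted p = 0.0136 in WT and log2 -0.89 ± 0.23, adjusted p = 0.0495 in KO). The KO call lay at the threshold and was lost with RLE or upper-quartile factors or no filter (adjusted p = 0.0503 to 0.0679) and without either KO steady-state library, either WT steady-state library or either KO LPS library (adjusted p = 0.0896 to 0.265). The WT call was lost without either WT steady-state library (adjusted p = 0.0852 to 0.0981) and on the 4 WT libraries alone (adjusted p = 0.0759). Its neighbour Slc36a2 (chromosome 11, 55158468 to 55185099), a glycine and proline carrier 19.222 kb away, was at 25.9 and 52.7 CPM in unstimulated WT, 0 and 0.556 in LPS-treated WT, 50.1 and 41.2 in unstimulated KO and 5.42 and 0.918 in LPS-treated KO. WT LPS replicate 1 had 0 reads, which allows up to 0.396 CPM (3 reads). The fall was log2 -6.76 ± 1.04, adjusted p = 0.0143 in WT and log2 -3.80 ± 0.85, adjusted p = 0.0329 in KO. The Slc36a2 calls were lost without either WT steady-state library (adjusted p = 0.0739 to 0.084) in WT and without either KO steady-state library, either WT steady-state library or replicate 2 of KO LPS (adjusted p = 0.0704 to 0.143) in KO. Slc36a3, on the far side of Slc36a2 at 6.745 kb, had at most 4 reads in a library. Slc36a4, another proton-coupled carrier, was at 15.4 to 62.0 CPM and did not pass.

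Slc15a3 (chromosome 19, 10842544 to 10857915) was at 496 and 386 CPM in unstimulated WT, 921 and 908 in LPS-treated WT, 402 and 364 in unstimulated KO and 569 and 974 in LPS-treated KO. Every LPS library exceeded every steady-state library, a change that did not pass in WT (log2 1.05 ± 0.34, adjusted p = 0.106) or KO (log2 1.01 ± 0.34, adjusted p = 0.0929). Slc15a4, its lysosomal relative, which supports signalling of endosomal toll-like receptors, was at 44.7 to 73.0 CPM in all libraries. Slc38a9, the lysosomal arginine sensor of the growth kinase mTORC1, was at 26 and 12.9 CPM in KO with LPS, below the 39.9 and 49.6 at steady state (log2 -1.20 ± 0.45, adjusted p = 0.116). Slc38a7, a lysosomal glutamine exporter, stayed between 37.4 and 57.1 CPM. Of 31 genes of lysosomal amino acid sensing, edgeR called 0 in WT with LPS (7 at an unadjusted p under 0.05, and 3 by DESeq2) and 2 in KO, Rptor and Sesn1, both lower (15 at an unadjusted p under 0.05, and 8 by DESeq2). These 2 of 31 stand beside 11.8% of all genes. Over all genes 26.7% in WT and 32.8% in KO had an unadjusted p under 0.05, and DESeq2 called 16% and 22.9%. Rptor, the scaffold of mTORC1, was at 194 and 238 CPM in unstimulated WT, 67.7 and 116 in LPS-treated WT, 211 and 193 in unstimulated KO and 72.8 and 51.4 in LPS-treated KO (log2 -1.70 ± 0.34, adjusted p = 0.0235 in KO), and lost its call without either KO steady-state library, either WT steady-state library or either KO LPS library (adjusted p = 0.0501 to 0.144). Sesn1, an inhibitor of the pathway, was at 59.6 and 36.3 CPM in unstimulated WT, 11.4 and 21.1 in LPS-treated WT, 42.9 and 53.5 in unstimulated KO and 18.1 and 9.18 in LPS-treated KO (log2 -1.82 ± 0.46, adjusted p = 0.0452 in KO), and lost its call without either KO steady-state library, either WT steady-state library or either KO LPS library (adjusted p = 0.0557 to 0.224) and with upper-quartile factors (adjusted p = 0.0529).

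At steady state the highest of family 38 per kilobase of exon was Slc38a2 (chromosome 15, 96687392 to 96699728), the sodium-coupled glutamine and alanine carrier that cells induce when starved of amino acids. It was at 248 and 316 CPM in unstimulated WT, 66.3 and 95.5 in LPS-treated WT, 253 and 274 in unstimulated KO and 57.9 and 56.3 in LPS-treated KO. Every LPS library lay far below every steady-state library. It fell in WT (log2 -1.80 ± 0.28, adjusted p = 0.0141) and in KO (log2 -2.21 ± 0.28, adjusted p = 0.0064), and the calls were lost without either WT steady-state library (adjusted p = 0.082 to 0.0981) or on the 4 WT libraries alone (adjusted p = 0.0804) in WT and without either KO steady-state library or replicate 2 of KO LPS (adjusted p = 0.052 to 0.0576) in KO. Slc38a1, which lies 43.953 kb from it on chromosome 15 and has similar substrates, was at 114 and 66.8 CPM in WT with LPS against 97.1 and 99.1, and in KO at 96.9 and 72.4 against 139 and 149, without passing (log2 -0.12 ± 0.30, adjusted p = 0.829 and log2 -0.77 ± 0.30, adjusted p = 0.132). Slc38a6 (chromosome 12, 73286739 to 73361998), a little-studied member of the family, was at 24.5 and 29.4 CPM in unstimulated WT, 34.0 and 34.9 in LPS-treated WT, 31.3 and 28.8 in unstimulated KO and 60.1 and 53.4 in LPS-treated KO. It rose in KO (log2 0.92 ± 0.22, adjusted p = 0.0405), and that call was lost without either KO steady-state library, either WT steady-state library or either KO LPS library (adjusted p = 0.075 to 0.266) and without a filter (adjusted p = 0.0506). Slc38a10, above Slc38a2 per kilobase with LPS in both genotypes, was at 165 and 158 CPM in unstimulated WT, 144 and 140.3 in LPS-treated WT, 186 and 174 in unstimulated KO and 174 and 185 in LPS-treated KO (log2 -0.19 ± 0.21, adjusted p = 0.601 in WT and log2 -0.01 ± 0.21, adjusted p = 0.989 in KO).

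In family 43, Slc43a3 (chromosome 2, 84936545 to 84958509), which carries purine nucleobases and not amino acids, was at 9.46 and 7.80 CPM in unstimulated WT, 97.8 and 60.9 in LPS-treated WT, 8.45 and 11.0 in unstimulated KO and 108 and 206 in LPS-treated KO. It rose 9.18-fold in WT (log2 3.20 ± 0.41, adjusted p = 0.00845) and 16.2-fold in KO (log2 4.02 ± 0.43, adjusted p = 0.00389). The KO call remained without any 1 library, and the WT call was lost without either WT steady-state library (adjusted p = 0.0852 to 0.0865). Slc43a2 (chromosome 11, 75529915 to 75577575), a leucine and phenylalanine carrier, was at 379 and 380.3 CPM in unstimulated WT, 128 and 242 in LPS-treated WT, 342 and 344 in unstimulated KO and 566 and 539 in LPS-treated KO. Both KO libraries were higher with LPS and both WT libraries lower, and neither change passed (log2 0.69 ± 0.33, adjusted p = 0.193 in KO and log2 -1.03 ± 0.34, adjusted p = 0.108 in WT).

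**Figure D3:**
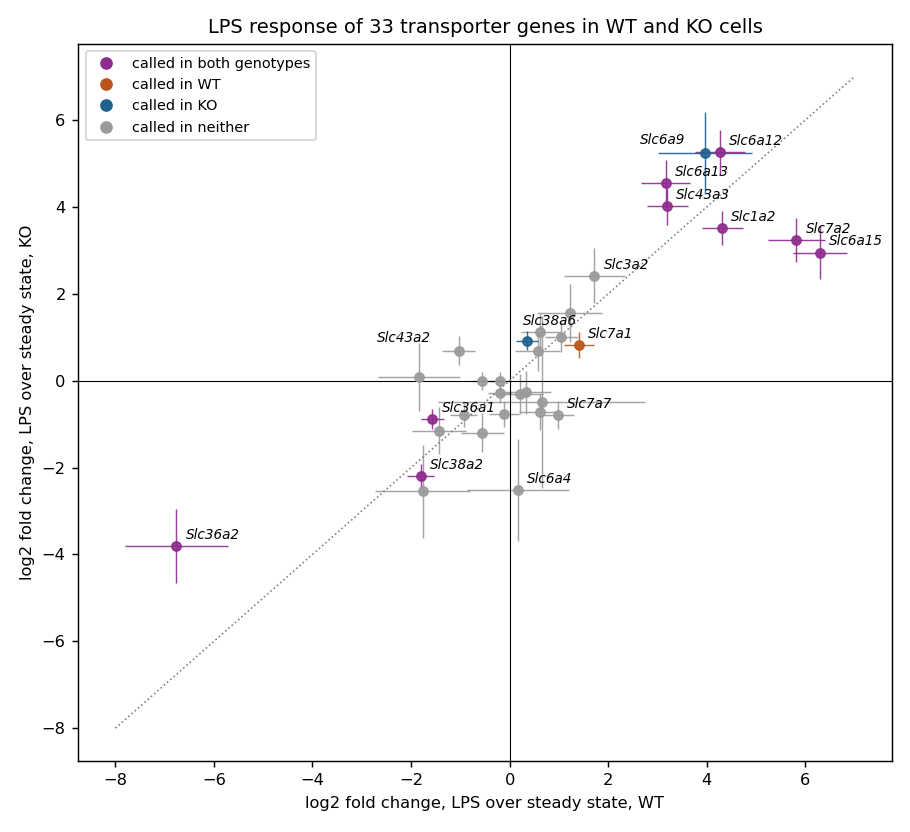
Log2 fold change of LPS over steady state in WT (x axis) and KO (y axis) for the 33 tested transporter genes, with bars of 1 standard error and a dotted line of equal change. Slc6a15 and Slc7a2 lie below the line on the right and Slc36a2 above it on the left. Of the labelled genes Slc43a2, Slc7a7 and Slc6a4 lie in quadrants of opposite sign, as do some unlabelled ones. In none of the 33 did the interaction pass.

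The genotypes were compared at each treatment, to ask what loss of Gata1 changes. At steady state edgeR called 0 of 33 genes, as it did for 0% of all genes. There were 3 at an unadjusted p under 0.05 (2.63% of all genes), and DESeq2 called 1, Slc7a2, and 0.217% of all genes. Slc7a2 was 4.83-fold higher in KO (log2 2.27 ± 0.50, adjusted p = 0.934; DESeq2 adjusted p = 0.00421). The others were Slc1a2 (log2 1.14 ± 0.41, adjusted p = 1) and Slc7a5 (log2 1.03 ± 0.42, adjusted p = 1), also higher in KO. Libraries of the genotypes did not overlap in 15 of 33 genes, where 45.5% of all genes did not. The median log2 difference was 0.16, beside -0.01 over all genes. In the related lists edgeR called 0 of 19 amino acid response genes, 0 of 31 sensing genes and 0 of 20 users (1, 0 and 2 at an unadjusted p under 0.05), and DESeq2 called 0, 0 and 1 (Hal).

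With LPS 1 of 33 genes passed, Slc6a15, which was 13.6-fold lower in KO (log2 -3.77 ± 0.47, adjusted p = 0.0315), where 0.772% of all genes passed and 0.49% were lower. Slc6a15 was among the tested genes only through its LPS libraries, of which those of WT were the high ones. Its call was lost without either KO steady-state library, either WT steady-state library or either KO LPS library (adjusted p = 0.0917 to 0.152) and with edgeR on these 4 libraries alone (adjusted p = 0.312). With each of the 8 libraries left out in turn the log2 difference lay between -4.0 and -3.47. A further 7 genes had an unadjusted p under 0.05, where 16.9% of all genes did. Of these Slc7a7 (chromosome 14, 54369442 to 54420068), a light chain that exports arginine and lysine, was lower in KO. It was at 37.9 and 26.8 CPM in unstimulated WT, 62.8 and 65.2 in LPS-treated WT, 30.3 and 48.0 in unstimulated KO and 25.6 and 19.6 in LPS-treated KO, and the difference with LPS was log2 -1.5 ± 0.32, adjusted p = 0.0829. Higher in KO at an unadjusted p under 0.05 were Slc43a2 (log2 1.58 ± 0.34, adjusted p = 0.0866), Slc6a13 (log2 1.84 ± 0.46, adjusted p = 0.108), Slc36a1 (log2 0.93 ± 0.23, adjusted p = 0.11), Slc38a6 (adjusted p = 0.155), Slc36a2 (0.184) and Slc43a3 (0.246). Slc6a13 was called without WT LPS replicate 1 (adjusted p = 0.0472) and Slc43a2 without WT LPS replicate 2 (0.0326). Without WT LPS replicate 1 the count was 3 (6.43% of all genes called) and without replicate 2 it was 2 (1.61%), while leaving out any 1 of the 4 steady-state or 2 KO LPS libraries gave 0 (0.00776% to 0.0704%). DESeq2 called 6, adding Slc6a13, Slc7a7, Slc36a1, Slc36a2 and Slc43a2, and 8.54% of all genes. Without a filter the count was 4, adding Slc6a13, Slc7a7 and Slc43a2, and 3.1% of all genes passed. Libraries of the genotypes did not overlap in 14 of 33 genes, where 36.1% of all genes did not. In the related lists edgeR called 0 of 19 amino acid response genes and 0 of 31 sensing genes (2 and 8 at an unadjusted p under 0.05, and 1 and 5 by DESeq2). Summed dendritic cell markers were lower in both KO LPS libraries than in both WT LPS libraries, and summed macrophage markers higher (7363 and 8220.2 CPM against 6189 and 3021). The dendritic cell sum does not stand for each marker. Its largest, Cd74, overlapped between genotypes (1834 and 4454 CPM in KO, 6671 and 4175 in WT). Sirpa was higher in KO (1744.5 and 1373 CPM against 771 and 810). The part of these cell markers in the genotype differences was not tested.

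The interaction asked whether the LPS response differed between genotypes. edgeR called 0 of 33 genes, as it did for 0% of all genes. There were 4 at an unadjusted p under 0.05 (6.41% of all genes), and DESeq2 called 0.908% of all genes and 2 transporters, Slc7a2 (adjusted p = 0.0323) and Slc43a2 (0.0487). The KO response minus the WT response of Slc7a7 was log2 -1.77 ± 0.44, adjusted p = 0.542, and the gene was higher with LPS in both WT libraries and lower in both KO libraries. For Slc43a2, whose libraries lay the other way, the difference of responses was log2 1.72 ± 0.47, adjusted p = 0.588. For Slc7a2 it was log2 -2.58 ± 0.68, adjusted p = 0.579, and for Slc6a15 log2 -3.35 ± 0.94, adjusted p = 0.59. For Slc7a2 the genotypes had lain apart at steady state and their libraries overlapped with LPS. The libraries of Slc6a15 overlapped at steady state and lay apart with LPS.

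**Figure D4:**
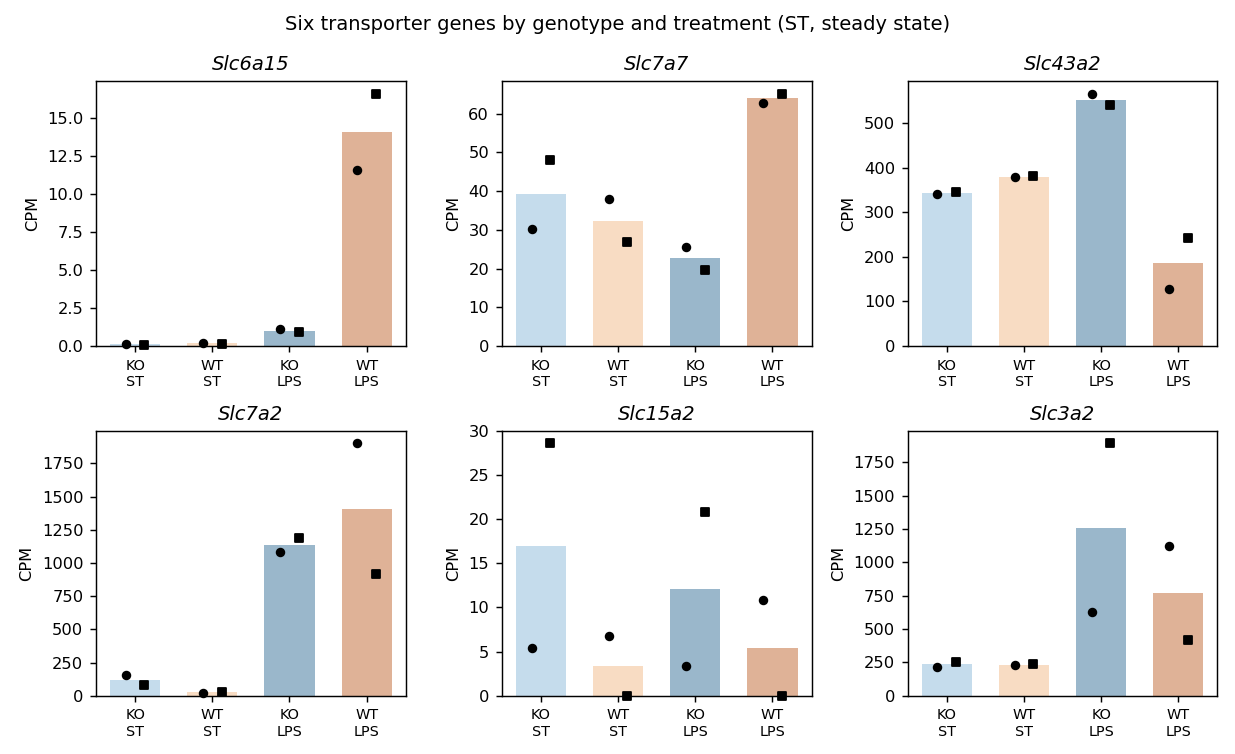
CPM of 6 transporter genes in each library (circles for replicate 1, squares for replicate 2), with bars at the mean of the 2 libraries of a group. Slc6a15 is high in the WT LPS libraries, Slc7a7 and Slc43a2 separate the genotypes in opposite directions with LPS, Slc15a2 is at 0 in both WT replicate 2 libraries, and the LPS libraries of Slc3a2 lie far apart.

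Slc15a2 (chromosome 16, 36750161 to 36785158), the cell-surface carrier of small peptides, did not sort by genotype or treatment. It had 0 reads in WT replicate 2 at steady state and with LPS, 70 and 82 reads in WT replicate 1, 70 and 30 in KO replicate 1, and 323 and 136 in KO replicate 2. In CPM these were 0 and 0, 6.76 and 10.8, 5.42 and 3.39, and 28.6 and 20.8. A count of 0 allows up to 0.223 CPM in the steady-state library and 0.185 in the LPS library. Replicate 1 and replicate 2 of WT thus differed at both treatments, and none of the 5 comparisons passed (adjusted p = 0.833 to 1).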

How the data were processed

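RNA was measured in 8 libraries made with a TruSeq RNA v2 kit, per the labels' protocols, a kit that does not mark strand. Per gene and library the authors deposited a read count, a whole number with no normalization. Per the submitters' processing notes the build was mm10 and the tools included featureCounts, Subread 1.4.3, edgeR 3.6.8 and TopHat2 2.0.8, with no role given. The treatment of reads matching several genes is not stated in the labels. No feature was blank or a total.

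Transporters were found by symbol, and all 64 matched RefSeq (GRCm38.p6), which gave the coordinates and upstream sequences. Exon lengths are unions of GENCODE exons. Genes were kept with filterByExpr (minimum count 10, minimum total 15), which left 12442, and scaled by TMM. The edgeR 4.0.16 quasi-likelihood F test (R 4.3.3) was fitted with 1 coefficient per group over all 8 libraries, with 4 residual and 3.4 prior degrees of freedom. All tests were two-sided, with Benjamini-Hochberg adjustment over all tested genes. The SE is the log2 fold change divided by the square root of F. The procedure was run on simulated counts drawn with the same relative spread in every gene and group. That run does not cover the unequal spread of these groups.

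The transporters, the related lists and the marker lists were chosen with earlier results of these data known. The naming rule gave full values to transporters called in any comparison and to the 12 of highest mean CPM, and ranges or values to other tested ones. In related lists it gave up to 4 called genes of smallest adjusted p. Other called genes are named there only to spell out a count. Results were recomputed with DESeq2 1.42.0, with RLE or upper-quartile factors, unfiltered or with a filter of 1 CPM in 2 libraries, on the compared groups alone, with a replicate block, at an adjusted p under 0.1 and without each library.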

Additional observations from a re-analysis of the deposited data

How the results depend on the processing

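Over the 5 comparisons the count of called transporters stayed within 1.5 times the main count in 57 of 84 alternatives and moved further in 27. The share of all genes called, given in brackets, moved with it. With DESeq2 the count was 1 for KO against WT at steady state (0.217%), 6 for KO against WT with LPS (8.54%), 16 for LPS in WT (16%) and 2 for the interaction (0.908%). For KO against WT with LPS it was 4 without a filter (3.1%), 0 with only the groups compared (0%) and 3 at an adjusted p under 0.1 (3.77%). Leaving out each library gave 0 to 3 there (0.00776% to 6.43%), 1 to 17 for LPS in WT (0.543% to 28.3%) and 3 to 17 for LPS in KO (1.11% to 26%), and 0 for each of the other comparisons. Of 352 alternatives of the 22 called transporter results, 278 kept call and direction, 74 lost the call (58 without 1 library) and 0 reversed. Of 20 called results of related genes, 1 (Kmo in KO) kept its call under every alternative and 0 reversed.

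The labels do not say whether a replicate number pairs libraries. With the number as a replicate block the counts were 0, 0, 9, 7 and 0 for KO against WT at steady state, KO against WT with LPS, LPS in WT, LPS in KO and the interaction (0%, 0.0643%, 3.74%, 6.24% and 0%). That block was a single term shared by KO and WT, so it does not show the effect of pairing within a genotype. The replicate block ended the calls of Slc6a15 in KO against WT with LPS, of Slc7a1 for LPS in WT, and of Slc6a15, Slc36a1, Slc36a2 and Slc38a6 for LPS in KO. Deviations of same-numbered libraries from their group means correlated over all tested genes between -0.599 (KO LPS with WT LPS) and 0.26 (WT steady state with WT LPS). With the KO LPS numbers exchanged, a replicate block added after seeing the data, the counts were 0, 1, 11, 13 and 0. The shares of all genes called were then 0%, 2.19%, 10.3%, 20% and 0%. Depth limits the genes with few reads, such as Slc6a15 and Slc6a9 at steady state.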

Other observations

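Few genes shared the pattern of Slc15a2, a search made after its values were seen. Among all features, Slc15a2 and Ifi202b had 0 reads in both WT replicate 2 libraries and at least 30 in each of the 6 others. The same search gave Ifi44l for WT replicate 1 and 0 genes for KO replicate 1 and for KO replicate 2. Golgb1, a near neighbour of Slc15a2 on chromosome 16, was at 268 CPM in WT steady-state replicate 2 and 282 in WT LPS replicate 2, beside 192 to 511 in the 6 others.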
